A study of Mus musculus with 32 samples.

Results

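The 42 genes described here encode proteins of autophagy and of the lysosome, and were found by name in count and TPM tables of 24952 genes. All 42 were found. They comprise the initiation kinase complex (Ulk1, Ulk2, Rb1cc1, Atg13, Atg101), the class III PI3-kinase complex (Becn1, Pik3c3, Pik3r4, Atg14) and the proteins that supply membrane to the growing autophagosome (Atg2a, Atg2b, Atg9a, Wipi1, Wipi2). A conjugation group (Atg3, Atg4b, Atg5, Atg7, Atg10, Atg12, Atg16l1) takes part in the reactions that attach the ATG8 proteins (Map1lc3a, Map1lc3b, Gabarap, Gabarapl1, Gabarapl2) to membrane. Its members are called conjugation enzymes below, although not all of them are enzymes. The remaining members are receptors for cargo (Sqstm1, Nbr1, Optn, Bnip3, Bnip3l, Fundc1), the transcription factors Tfeb and Tfe3, and 8 lysosomal genes (Lamp1, Lamp2, Ctsb, Ctsd, Ctsl, Ctss, Hexa, Npc1).

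Autophagy encloses cytoplasm, protein aggregates and organelles in a double membrane that fuses with the lysosome, where hydrolases digest the content. The ULK1 kinase complex starts the process and is held back by mTORC1, the lipid kinase complex marks the membrane, and ubiquitin-like reactions attach ATG8 proteins to it, to which receptors tether their cargo. In skeletal muscle autophagy removes worn mitochondria and protein, and both too little and too much of it accompany loss of muscle mass.

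RNA came from regions of the tibialis anterior muscle that held neuromuscular junctions (NMJ) or lay away from them (xNMJ), in male, wild-type C57BL/6JRj mice, aged 10 or 30 months. All mice lived in single cages on the AIN93M diet, for 2 to 3 months before the age of 10 months and for 16 months before the age of 30 months, so that age and time on the diet cannot be told apart. NMJs were located with fluorescent α-bungarotoxin, which binds the acetylcholine receptor, and cut out with a laser, each library pooling many regions. NMJ and xNMJ at 10 months (10m) and at 30 months (30m) make 4 groups of 8 libraries each. The labels do not tie a library to an animal, and p values measure the spread between libraries. Total counts ranged from 4026648 to 16516788, with medians of 6062117 in xNMJ and 9605869 in NMJ at 10 months and of 6790011 and 9825357 at 30 months. The limit of 3 counts equals 0.182 to 0.745 CPM (counts scaled to the library total) before TMM scaling, depending on the library. The CPM levels of members, other genes and marker lists given below are also scaled with the TMM factors described below. They are therefore on a different scale from this limit. On their scale 1 count of Ctss in 10m xNMJ replicate 1 was 0.311 CPM.

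The labels of tissue and region were checked against markers. Muscle fibre markers, led by the troponin gene Tnnt3, summed to a median of 120000 CPM in xNMJ against 79600 CPM in NMJ at 10 months, and of 131000 against 73100 CPM at 30 months. On unscaled TPM the fibre markers did not all differ this way. At 10 months the medians, in the same order, were 32400 against 24100 TPM for Tnnt3 and 26400 against 28900 TPM for Mylpf. The 6 synaptic markers, such as the receptor subunits Chrna1 and Chrne, summed to medians of 29.5 against 1450 CPM at 10 months and 34.2 against 1440 CPM at 30 months. One library stood apart, since the synaptic markers reached 394 CPM in 30m xNMJ replicate 5 and at most 47.5 in the other 7 libraries of its group. Values of the members that changed a call or moved by over 1.5 times without this library are given with and without it.

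Each library was scaled with TMM factors, which set the bulk of genes equal between libraries. The factors separated the regions at both ages, with 0.738 to 0.904 in xNMJ and 1.12 to 1.29 in NMJ at 10 months. At 30 months they were 0.685 to 1.01 in xNMJ, with a median of 0.763, and 1.13 to 1.35 in NMJ. On unscaled TPM the median log2 fold change of all tested genes between NMJ and xNMJ was 0.41 at 10 months and 0.53 at 30 months, and it was 0.00 and -0.01 on the scaled counts. Differences below are on the scaled counts, relative to the bulk of genes. As a share of all counts before scaling, the 42 members took a median of 0.262% in xNMJ against 0.359% in NMJ at 10 months, and of 0.241% against 0.355% at 30 months. This unscaled share was larger in NMJ at both ages, in the same direction as the unscaled median of all genes.

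Levels of different genes were compared in TPM, which accounts for transcript length. The receptor Sqstm1 (p62), which links ubiquitin to ATG8 proteins, had the highest mean of the members over 32 libraries at 260 TPM. It was followed by the ATG8 protein Map1lc3b (198 TPM), the aspartic protease Ctsd (185 TPM), Map1lc3a (177 TPM), Gabarapl2 (143 TPM) and Gabarap (116 TPM). The order differed between groups. Sqstm1 had the highest mean in 3 groups and the third in 30m xNMJ, at 175 TPM, where Map1lc3a had 223 TPM and Map1lc3b 186 TPM, or at 182 TPM the second, behind Map1lc3a, without replicate 5. In both xNMJ groups Bnip3 lay above Gabarap, with means of 132 against 107 TPM at 10 months and of 108 against 83.7 TPM at 30 months. These 6 genes are products consumed with the autophagosome or found in the lysosome. The upstream machinery lay lower, with a median of the means of 10.5 TPM over the 5 initiation genes, 4.69 TPM over the 4 genes of the lipid kinase complex and 11 TPM over the 7 conjugation enzymes. Ulk1, the kinase that starts the process, had a mean of 4.03 TPM, and the lowest member was the transcription factor Tfe3 at 2.99 TPM. The scaffold Rb1cc1 (FIP200), at 43 TPM, was the most abundant member of its complex. The 5 ATG8 genes held 34.5% of the summed TPM of the members, the 6 receptors 25.8% and the 8 lysosomal genes 23.4%.

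**Figure D1:**
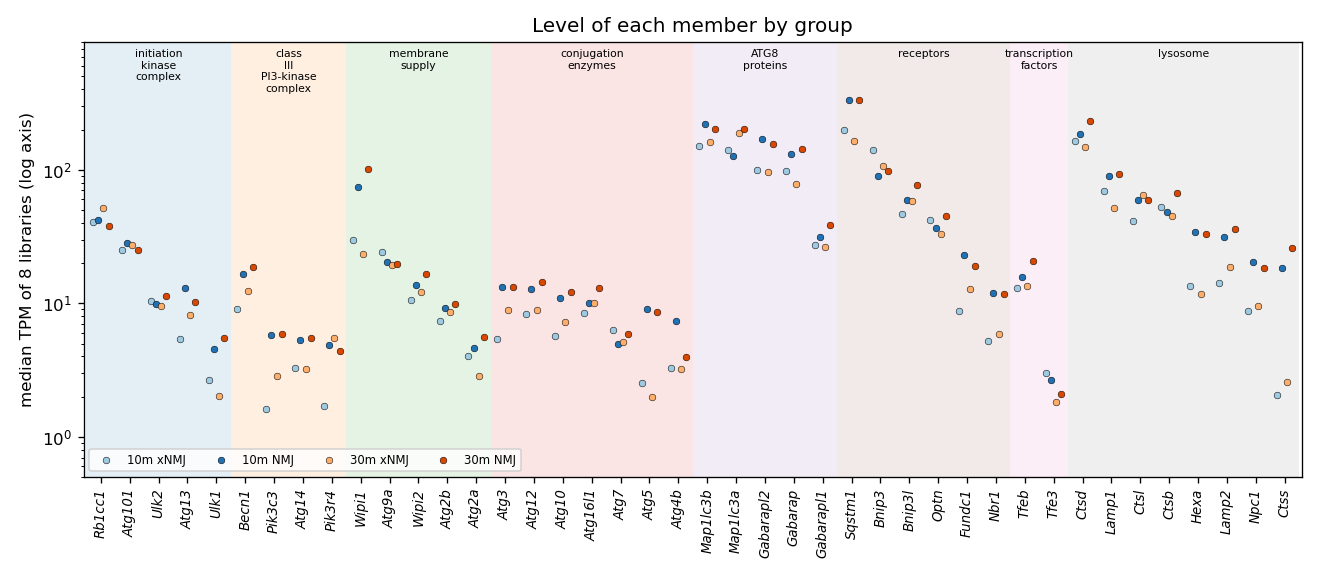
Median TPM of each member in the 4 groups (log axis, 8 libraries per point), ordered by role and by mean level within a role. Sqstm1, 4 of the ATG8 genes and Ctsd had means above 100 TPM, as had Bnip3 at 106 TPM, and the kinase, lipid kinase and conjugation genes lay mostly near 10 TPM or lower.

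Neighbours in this order were not separated. Map1lc3b ranged from 90.3 to 366 TPM over the libraries, Ctsd from 90 to 316 TPM and Map1lc3a from 77.9 to 477 TPM. Spread between libraries of a group depended on the level, as 30 members with a mean of at least 20 CPM had a median coefficient of variation of 30.4% and the 12 below it one of 58.7%. Ctsb was the steadiest at 17.7%, and the conjugation enzyme Atg10 the most variable at 70.4%.

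The first question was whether the genes differ between synaptic and extra-synaptic muscle at 10 months. Wipi1, which binds the lipid made by the PI3-kinase complex, and the lysosomal protease Ctss were higher in NMJ. The mitophagy receptor Bnip3, the lysosomal protease Ctsb and the conjugation enzyme Atg7 were lower in NMJ. Thus 5 of the 42 members passed an adjusted p of 0.05 (edgeR's quasi-likelihood test, adjusted over 13990 genes), where 11.5% of all tested genes did, 6.5% higher and 5.05% lower. The share of members was 11.9%, near this background. Their median log2 fold change was -0.06, against 0.00 over all tested genes, and 16 of 42 were above 0, against 50.2% of all genes.

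At 30 months Wipi1 and the β-hexosaminidase subunit gene Hexa were higher in NMJ, and Bnip3, the initiation scaffold Rb1cc1 and the lysosomal protease Ctsl were lower. This was again 5 of 42 members (11.9%), where 9.26% of all tested genes passed, 5.0% higher and 4.25% lower. The median of the members was 0.03, against -0.01 over all genes, and 22 of 42 were above 0, against 49.3% of all genes. Only Wipi1 and Bnip3 passed at both ages. Without 30m xNMJ replicate 5, 3 members were higher at 30 months (Ctss, Hexa and Wipi1) and 4 lower (Atg7, Bnip3, Map1lc3a and Rb1cc1), and the calls at 10 months were the same genes. Of all genes, 10.6% passed at 30 months and 12.2% at 10 months without this library.

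**Figure D2:**
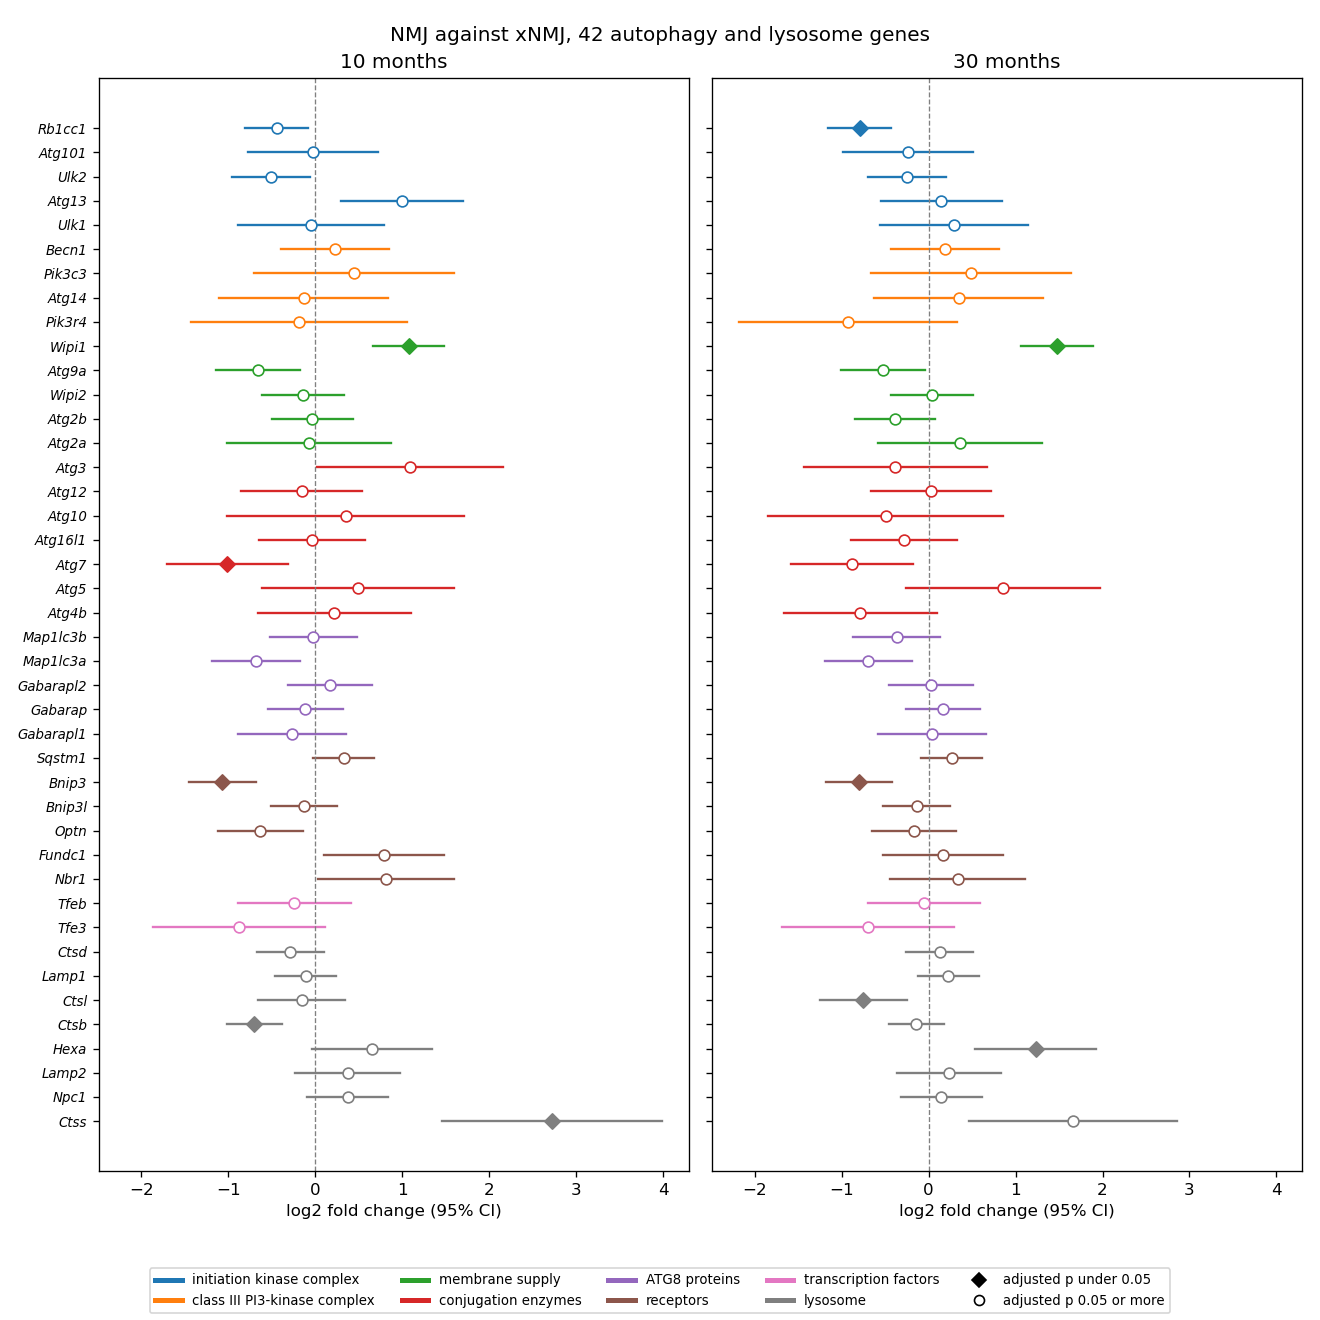
Log2 fold change of NMJ against xNMJ for the 42 members with 95% confidence intervals, by role, from 8 libraries per group on TMM-scaled counts. Filled diamonds passed an adjusted p of 0.05: Wipi1 and Bnip3 did so at both ages, on opposite sides of 0.

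Promoters are shown for Wipi1 and Bnip3, because these members moved in opposite directions at both ages. Lamp1 is shown because its printed stretch held 4 copies of the shorter of the motifs searched for. The letters were CACGTG, the E-box core read by TFEB and TFE3, and the longer CLEAR element that contains it. Both motifs read the same on either strand, so that 1 search covers both strands. Windows of 300 bases, 250 before and 50 after each gene start, were taken from RefSeq (GRCm38.p6) and were found for 33 of the 42 members, in 37 windows. The E-box was in 8 of these 37 windows (21.6%), against 7.15% of 32851 windows in all, namely those of Atg3, Atg5, Atg7, Atg14, Bnip3, Ctsd, Ctsl and Lamp1. The CLEAR element was searched for as 1 fixed string of 10 letters, and other forms of it were not searched for. This string was in none of the 37 windows, and in 0.326% of all windows. With so low a share in all windows, its absence from 37 cannot show that the members lack the element. A match is a description of the letters, not a binding site. Printed here are the bases of each window that precede its first annotated exon, 5′ to 3′ on the strand of the gene, with E-boxes in capitals. The stretches of Bnip3 and Lamp1 end at the annotated 5′ end of the gene. That of Wipi1 ends at the first exon of its protein-coding transcripts and lies inside the annotated gene, in an intron of a transcript that starts further upstream and is not annotated as protein-coding. Bnip3 lies on the minus strand at chr7:138909520-138909756, Wipi1 on the minus strand at chr11:109611433-109611639 and Lamp1 on the plus strand at chr8:13158911-13159160.
Bnip3: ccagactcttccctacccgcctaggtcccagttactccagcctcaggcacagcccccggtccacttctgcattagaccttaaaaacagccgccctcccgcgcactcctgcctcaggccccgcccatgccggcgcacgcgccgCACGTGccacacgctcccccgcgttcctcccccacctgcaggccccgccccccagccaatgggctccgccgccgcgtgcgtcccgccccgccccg
Wipi1: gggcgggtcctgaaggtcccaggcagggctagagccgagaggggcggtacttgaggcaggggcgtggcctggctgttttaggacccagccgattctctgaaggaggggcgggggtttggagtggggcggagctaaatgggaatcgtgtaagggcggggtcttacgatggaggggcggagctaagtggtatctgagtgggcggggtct
Lamp1: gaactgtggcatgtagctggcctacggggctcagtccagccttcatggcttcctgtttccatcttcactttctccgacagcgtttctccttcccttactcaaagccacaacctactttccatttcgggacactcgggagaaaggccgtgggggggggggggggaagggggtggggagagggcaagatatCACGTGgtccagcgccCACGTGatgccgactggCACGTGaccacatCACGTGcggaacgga
The Bnip3 stretch holds 1 E-box, that of Wipi1 none and that of Lamp1 4. Lamp1, a major glycoprotein of the lysosomal membrane, gave log2 fold changes between regions of -0.11 (SE 0.17, adjusted p = 0.761) at 10 months and 0.23 (SE 0.17, adjusted p = 0.505) at 30 months in edgeR's test.

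Among the initiation genes Rb1cc1 (chr1:6206197-6276648, GRCm38, plus strand) encodes the scaffold that holds the kinase complex together. At 10 months its lowest, median and highest libraries were 99.0, 135 and 184 CPM in xNMJ and 73.0, 101 and 132 CPM in NMJ. At 30 months they were 90.4, 138 and 207 CPM in xNMJ and 58.5, 80.4 and 125 CPM in NMJ. The regions overlapped at both ages, but every NMJ library lay below the xNMJ median. The log2 fold change was -0.44 (SE 0.18, adjusted p = 0.109 in edgeR) at 10 months and -0.79 (SE 0.18, adjusted p = 0.00274) at 30 months. The kinase subunit Atg13 gave 1.001 (SE 0.34, adjusted p = 0.052 in edgeR) at 10 months and 0.15 (adjusted p = 0.864) at 30 months. At 30 months it gave 0.08 without 30m xNMJ replicate 5. It passed at 10 months with libraries blocked by replicate number. Ulk1, Ulk2 and Atg101 did not pass at either age.

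None of the 4 genes of the lipid kinase complex passed. Becn1, its regulatory subunit, had a log2 fold change of 0.23 (SE 0.30) at 10 months and 0.19 (SE 0.30) at 30 months. Without 30m xNMJ replicate 5 the latter was 0.296. For Pik3r4 the 95% interval at 30 months ran from -2.18 to 0.33, so that it includes a 4-fold difference.

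Wipi1 (chr11:109573331-109611967, GRCm38, minus strand) showed the clearest separation. Its lowest, median and highest libraries at 10 months were 40.4, 64.8 and 72.1 CPM in xNMJ and 90.8, 111 and 178 CPM in NMJ. At 30 months they were 23.6, 49.6 and 70.8 CPM in xNMJ and 108, 137 and 169 CPM in NMJ. No NMJ library fell to the level of any xNMJ library of its age. NMJ was 2.11-fold higher at 10 months (log2 fold change 1.08, SE 0.20, edgeR adjusted p = 0.000278) and 2.77-fold higher at 30 months (1.47, SE 0.20, adjusted p = 5.06e-06). Such separation upward was seen in 2.22% of all tested genes at 10 months and 1.96% at 30 months. Of the other members that supply membrane, the lipid scramblase Atg9a had log2 fold changes of -0.66 (SE 0.23, edgeR adjusted p = 0.0665) and -0.53 (SE 0.23, adjusted p = 0.185). With libraries blocked by replicate number Atg9a passed at 10 months. The related Wipi2 gave no call at either age.

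Atg7 (chr6:114643097-114860614, GRCm38, plus strand) encodes the enzyme that activates ATG8 proteins and ATG12. Its libraries at 10 months spanned 6.43 to 42.6 CPM in xNMJ, with a median of 22.6, and 6.25 to 24.5 CPM in NMJ, with a median of 10.3. The groups overlapped over most of the NMJ range. NMJ against xNMJ gave a log2 fold change of -1.01 (SE 0.34, edgeR adjusted p = 0.0477), which failed the threshold without any one of 22 of the 32 libraries, with adjusted p up to 0.125. With all libraries it passed in 1 of 10 other settings (DESeq2), and failed with the size factors of DESeq2 (adjusted p = 0.0583 in edgeR), without the filter (0.0904), with only the compared groups (0.107) and with the insert size as a covariate (-0.72, adjusted p = 0.388). At 30 months the medians were 18.8 CPM in xNMJ and 10.4 CPM in NMJ (-0.88, SE 0.34, adjusted p = 0.108), and without 30m xNMJ replicate 5 the adjusted p was 0.0494. The other 6 conjugation enzymes did not pass at either age, and Atg3, which transfers ATG8 to the lipid, had a log2 fold change of 1.09 (SE 0.52) at 10 months and -0.38 (SE 0.51) at 30 months.

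No ATG8 gene passed in a region comparison in edgeR with all libraries and without a block by replicate number. Map1lc3a came nearest, with medians of 119 CPM in xNMJ against 81.0 CPM in NMJ at 10 months, and of 160 against 114 CPM at 30 months. Its log2 fold change was -0.68 (SE 0.25, edgeR adjusted p = 0.0684) at 10 months and -0.69 (SE 0.25, adjusted p = 0.0715) at 30 months, and it was lower than the xNMJ median in 7 of 8 NMJ libraries at each age. Without 30m xNMJ replicate 5 it was among 4 members called lower at 30 months (-0.76, edgeR adjusted p = 0.0476). It also passed at 10 months with libraries blocked by replicate number. Map1lc3b, from which the usual marker of autophagosomes is made, had medians of 275 against 262 CPM and of 279 against 225 CPM in the same order. Its 95% interval at 10 months ran from -0.52 to 0.48 on the log2 scale. Gabarap had medians of 88.4 against 88.3 CPM and of 72.5 against 84.7 CPM, and Gabarapl2 of 142 against 155 CPM and of 139 against 128 CPM. Thus the levels of these 3 genes overlapped throughout.

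Bnip3 (chr7:138890836-138909519, GRCm38, minus strand) encodes a receptor in the outer mitochondrial membrane that recruits ATG8 proteins to mitochondria. At 10 months its lowest, median and highest libraries were 118, 190 and 233 CPM in xNMJ and 50.0, 90.7 and 124 CPM in NMJ. At 30 months they were 143, 151 and 177 CPM in xNMJ and 55.3, 89.8 and 146 CPM in NMJ. Only NMJ replicate 5 of each age reached into the xNMJ range, and every NMJ library lay below the xNMJ median. NMJ was 2.09-fold lower at 10 months (log2 fold change -1.07, SE 0.19, edgeR adjusted p = 0.000117) and 1.74-fold lower at 30 months (-0.80, SE 0.19, adjusted p = 0.00378). Its paralog Bnip3l (NIX) had log2 fold changes of -0.13 (SE 0.19, 95% interval -0.51 to 0.25) and -0.14 (SE 0.19, -0.52 to 0.24).

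Sqstm1, the member of highest mean TPM over all libraries, had medians of 324 CPM in xNMJ against 372 CPM in NMJ at 10 months, and of 260 against 325 CPM at 30 months. The regions overlapped, although 7 of 8 NMJ libraries exceeded the xNMJ median at each age. The log2 fold change was 0.33 (SE 0.17, edgeR adjusted p = 0.257) and 0.27 (SE 0.17, adjusted p = 0.41). Optn, a receptor for ubiquitin-marked mitochondria, gave -0.63 (SE 0.24, adjusted p = 0.0862) at 10 months and -0.17 (SE 0.24, adjusted p = 0.758) at 30 months. Without 30m xNMJ replicate 5 the latter was -0.098. Neither Tfeb nor Tfe3, which drive transcription of lysosomal genes, passed at either age.

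The lysosomal proteases did not move as one. Ctsb (chr14:63122462-63145923, GRCm38, plus strand), a cysteine protease, had lowest, median and highest libraries of 187, 262 and 287 CPM in xNMJ against 135, 156 and 172 CPM in NMJ at 10 months. All 8 NMJ libraries were below all 8 xNMJ libraries, a separation downward seen in 1.19% of all tested genes. The log2 fold change was -0.70 (SE 0.15, edgeR adjusted p = 0.00194). At 30 months the medians were 190 CPM in xNMJ and 191 CPM in NMJ, with wide overlap and a log2 fold change of -0.14 (SE 0.15, adjusted p = 0.673). The difference between the ages in this regional effect was 0.56 (SE 0.22, 95% interval 0.113 to 1.005) and did not pass (edgeR interaction, adjusted p = 0.843).

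Ctsl (chr13:64359337-64370890, GRCm38, minus strand), a related protease, was lower in NMJ at 30 months, with 56.0, 111 and 142 CPM in xNMJ and 40.8, 64.0 and 88.1 CPM in NMJ as lowest, median and highest. The groups overlapped, with every NMJ library below the xNMJ median. The log2 fold change of -0.75 (SE 0.24, edgeR adjusted p = 0.0445) lost its call without any one of 12 of 32 libraries, 30m xNMJ replicate 5 among them (-0.71, adjusted p = 0.0691), and passed in 4 of 10 other settings. At 10 months the medians were 72.7 CPM in xNMJ and 69.0 CPM in NMJ. Ctsd, the most abundant protease, had medians of 310 CPM in xNMJ against 274 CPM in NMJ at 10 months and of 275 against 292 CPM at 30 months, and passed in no comparison.

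Hexa (chr9:59539540-59565109, GRCm38, plus strand) encodes a subunit of the enzyme that trims gangliosides. Its lowest, median and highest libraries were 8.16, 22.3 and 33.7 CPM in xNMJ against 32, 46.4 and 81.8 CPM in NMJ at 30 months, and these ranges met only at their edges. NMJ exceeded xNMJ by 1.23 on the log2 scale (SE 0.34, edgeR adjusted p = 0.0153). At 10 months the medians were 28.3 CPM in xNMJ and 47.3 CPM in NMJ (0.65, SE 0.34, adjusted p = 0.245). In the 3 fits of unscaled TPM the 10-month difference passed, with 1.28 on log2(TPM + 1) (limma adjusted p = 0.00699).

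Ctss (chr3:95526786-95556403, GRCm38, plus strand), a cysteine protease known from antigen-presenting cells, gave the widest difference of the members. Its lowest, median and highest libraries were 0, 2.89 and 6.14 CPM in xNMJ against 10.7, 17.1 and 35.5 CPM in NMJ at 10 months, with no overlap. In 10m xNMJ 1 library had no count and another was at or below 3 counts. NMJ was 6.61-fold higher (log2 fold change 2.73, SE 0.61, edgeR adjusted p = 0.00239). At 30 months the libraries were 0.411, 3.42 and 25.5 CPM in xNMJ and 11.5, 22.6 and 36.2 CPM in NMJ (1.66, SE 0.58, adjusted p = 0.0696). The overlap came from 2 xNMJ libraries, replicate 2 at 15.8 CPM and replicate 5 at 25.5 CPM. The difference passed without 30m xNMJ replicate 5 (2.33, adjusted p = 0.00603), without 30m xNMJ replicate 2 (1.92, adjusted p = 0.0425) and without 10m xNMJ replicate 2 (1.66, adjusted p = 0.0423). It also passed with all libraries in DESeq2 (1.65, adjusted p = 0.0264), with the insert size as a covariate (1.79, adjusted p = 0.0424 in edgeR) and in the TPM fits. With libraries blocked by replicate number it passed too (2.51, edgeR adjusted p = 0.00897).

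**Figure D3:**
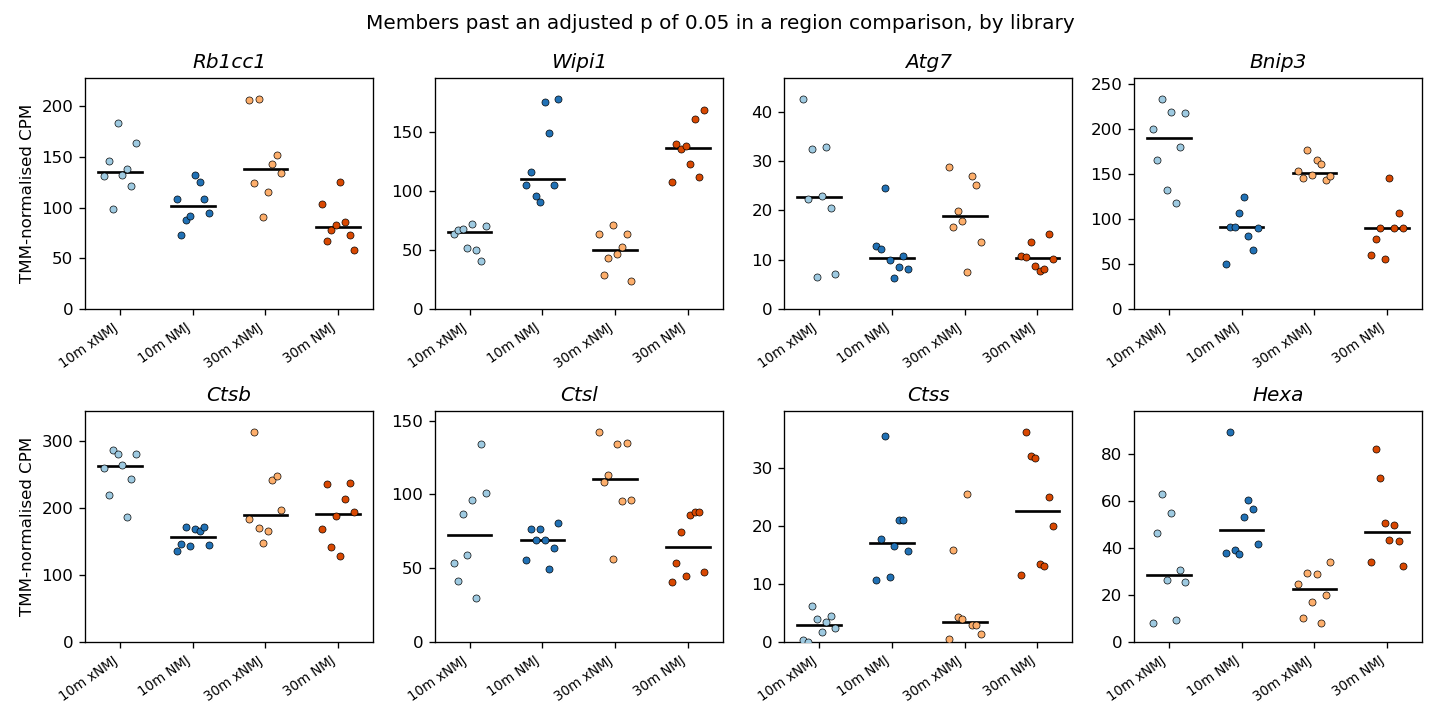
TMM-normalised CPM of the 8 members that passed in a region comparison, 1 point per library (8 per group) and the median as a bar, on linear axes from 0. Wipi1 separates the regions at both ages, Bnip3 lies lower in NMJ, and Ctsb separates them at 10 months only in the levels shown.

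Markers of several other cells moved with the regions as well, and their part in the differences above was not tested. In these pooled regions fewer cells of a type and less RNA per cell cannot be told apart. The 10 macrophage markers summed to medians of 27.6 CPM in xNMJ against 298 CPM in NMJ at 10 months, and of 28.5 against 280 CPM at 30 months. Of them 5 were called higher in NMJ at each age and none lower. Lyz2 was the most abundant, with medians of 2.24 against 170 CPM at 10 months, and the defining marker Adgre1 had no count in any 30m xNMJ library. The 2 libraries of 30m xNMJ with the highest Ctss were also those with the highest macrophage sums, at 131 CPM (replicate 2) and 133 CPM (replicate 5). In the NMJ groups the orders differed, as 10m NMJ replicate 3 had the highest Ctss of its group (35.5 CPM) and the lowest macrophage sum (234 CPM), and 30m NMJ replicate 5 had the highest macrophage sum (570 CPM) and 13.4 CPM of Ctss. Schwann cell markers had median sums of 17.5 against 251 CPM at 10 months and of 14.5 against 211 CPM at 30 months, with 6 of 7 called at each age. Fibroblast markers, led by Dcn, had 174 against 1290 CPM and 167 against 1090 CPM, with 5 and 4 of 7 called higher. All 4 mast cell markers were called higher in NMJ at each age, with median sums of 29.3 and 42.3 CPM there and of 0 CPM in xNMJ. On the scaled counts muscle fibre markers were lower in NMJ, with 5 of 9 called at 10 months and 6 of 9 at 30 months, such as Ckm (-1.08 at both ages on the log2 scale). This direction depended on the scaling for some markers. On unscaled TPM at 30 months, the medians in xNMJ and NMJ were 7760 and 6230 for Ckm, and 3040 and 3790 for Myh4. Of the 3 other leukocyte markers tested none was called at either age, with median sums, led by S100a8, of 34.5 against 12.4 CPM at 10 months and of 25.1 against 27.1 CPM at 30 months. Without 30m xNMJ replicate 5, which reached 126 CPM, the median in 30m xNMJ was 11.1 CPM. Endothelial markers had sums of 81.3 against 59.5 CPM and of 81.1 against 41.5 CPM, with 0 of 5 called at 10 months and Cdh5 called lower at 30 months. For mural markers they were 140 against 120 CPM and 150 against 109 CPM, with 0 of 4 called at 10 months and Rgs5 called lower at 30 months. Muscle stem cell markers, led by Sdc4, had 14.7 against 61.7 CPM and 15.3 against 39.1 CPM, with 1 of the 2 tested called higher at each age.

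**Figure D4:**
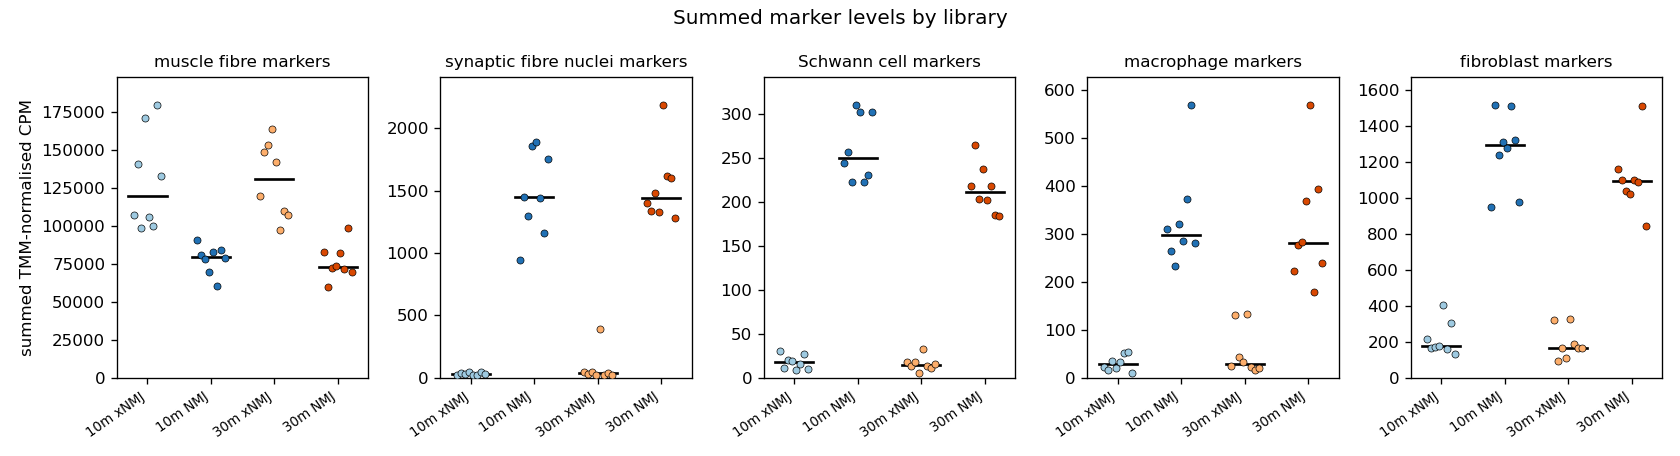
Summed TMM-normalised CPM of 5 marker lists, 1 point per library and the median as a bar. Muscle fibre markers were lower and Schwann cell, macrophage and fibroblast markers higher in NMJ, and 30m xNMJ replicate 5 stands out at 394 CPM of synaptic markers.

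The second question was whether the members differ between 10 and 30 months within a region. None of the 42 passed in edgeR in NMJ, where 0% of all tested genes did, or in xNMJ, where 0.0429% did (6 genes). None passed in DESeq2 either, where 0.00715% of all tested genes (1 gene) did in NMJ and 0.6% in xNMJ. At an unadjusted p under 0.05 there was 1 member in NMJ, against 2.66% of all genes, and there were 4 in xNMJ, against 9.45% of all genes. The median log2 fold change of the members was -0.03 in NMJ and -0.01 in xNMJ. For 28 members in NMJ and 25 in xNMJ the whole 95% interval lay within a 2-fold difference, and for the other 14 and 17 it did not.

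Map1lc3a was the member below 0.05 unadjusted in both regions. It went from a median of 81.0 to 114 CPM in NMJ and from 119 to 160 CPM in xNMJ, with overlapping ranges. The log2 fold change was 0.61 (95% interval 0.11 to 1.11, edgeR adjusted p = 1.0) in NMJ and 0.63 (0.12 to 1.13, adjusted p = 0.393) in xNMJ, and 7 of 8 and 8 of 8 libraries of 30 months exceeded the median of 10 months. In xNMJ the other 3 were Ctss (1.36, SE 0.60), Atg3 (1.19, SE 0.53) and Ctsl (0.55, SE 0.24). Without 30m xNMJ replicate 5 there were 3 in xNMJ (Map1lc3a, Atg3 and Lamp1), against 10.5% of all genes, and Ctss gave 0.69 (SE 0.57, edgeR unadjusted p = 0.233) and Ctsl 0.50 (SE 0.25, unadjusted p = 0.0541). Sqstm1, which accumulates as protein when autophagy is blocked, had log2 fold changes with age of -0.15 (95% interval -0.50 to 0.20) in NMJ and -0.09 (-0.44 to 0.26) in xNMJ. Those of Wipi1 were 0.10 (-0.31 to 0.50) and -0.30 (-0.71 to 0.11), and those of Bnip3 were 0.03 (-0.34 to 0.41) and -0.24 (-0.61 to 0.14).

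**Figure D5:**
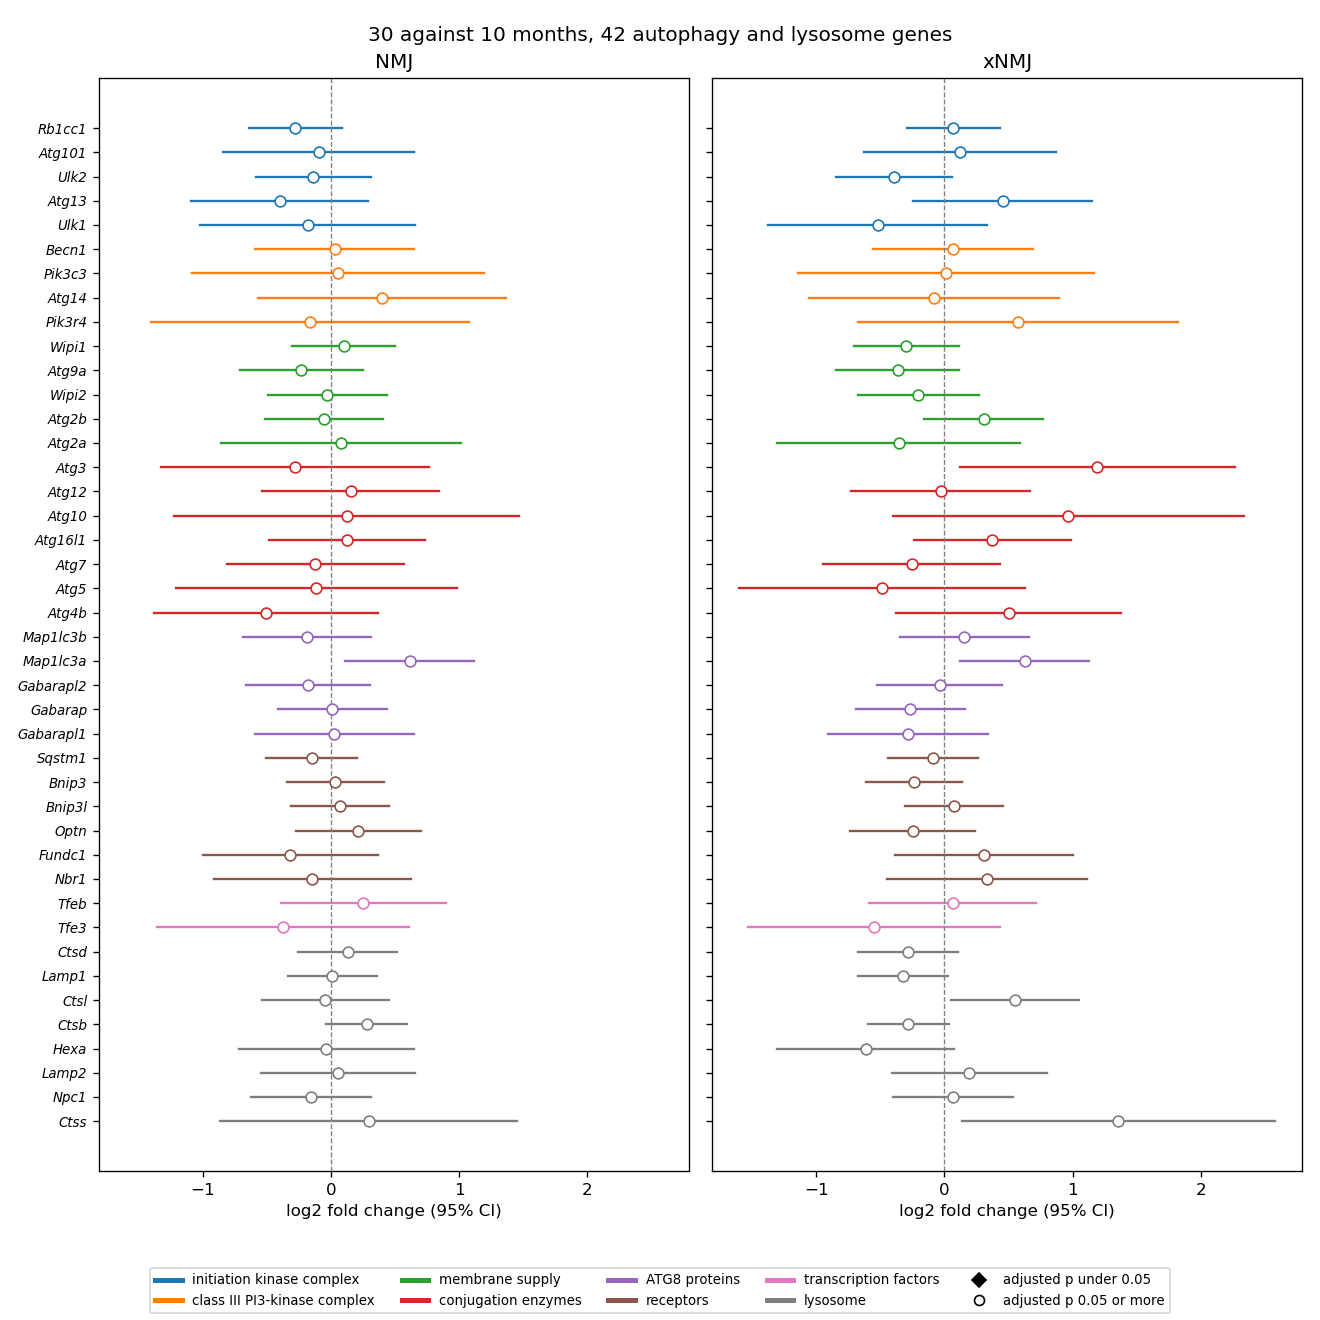
Log2 fold change of 30 against 10 months for the 42 members with 95% confidence intervals, in NMJ (left) and xNMJ (right), from 8 libraries per group. No member passed an adjusted p of 0.05, and Map1lc3a lies at 0.61 and 0.63.

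The interaction asked whether the regional difference changed with age. No member passed, as did 0% of all tested genes, and 1 member was below an unadjusted p of 0.05 against 5.06% of all genes. DESeq2 called 9 genes, none of them a member. The calls of Ctsb, Atg7 and Ctss at 10 months and of Hexa, Rb1cc1 and Ctsl at 30 months are therefore not shown to be specific to an age.

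Further genes of the pathway were taken from lists kept apart from the members. Of 39 further autophagy genes, 2 were higher and 5 lower in NMJ at 10 months, and 1 was higher and 4 lower at 30 months. These were 17.9% and 12.8% of the list, against 11.5% and 9.26% of all tested genes. The median log2 fold change of the list was -0.14 at 10 months and -0.10 at 30 months, against 0.00 and -0.01 over all tested genes. Tecpr1, a tethering factor of autophagosomes and lysosomes, was higher at both ages, with medians of 105 CPM in xNMJ against 171 CPM in NMJ at 10 months (log2 fold change 0.77, edgeR adjusted p = 0.0112) and with 0.88 (adjusted p = 0.00446) at 30 months. Atg4c, a protease that processes ATG8 proteins, had medians of 25.9 CPM in xNMJ against 5.01 CPM in NMJ at 10 months (-2.48, adjusted p = 9.12e-05) and gave -1.88 (adjusted p = 0.0024) at 30 months. The adaptor Fyco1, which links autophagosomes to microtubule motors, was lower at both ages (-0.79 and -0.70), as were the ubiquitin ligase gene Park2 (-0.55 and -0.63) and the endosomal GTPase gene Rab7 (-0.53 and -0.74). The large scaffold gene Wdfy3 was higher (1.54) and the protease gene Atg4d lower (-0.81) at 10 months.

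Of 47 further lysosomal genes, 8 were higher and 2 lower at 10 months, and 6 were higher and none lower at 30 months. These were 21.3% and 12.8% of the list, against 11.5% and 9.26% of all tested genes. The median log2 fold change of the list was 0.44 at both ages, against 0.00 and -0.01 over all tested genes. The tetraspanin gene Cd63 was higher at both ages, with medians of 47.6 CPM in xNMJ against 120 CPM in NMJ at 10 months (1.39, edgeR adjusted p = 0.0036) and with 1.2 (adjusted p = 0.0142) at 30 months, and the thioesterase gene Ppt1 was higher at both ages (1.38 and 1.5). Sort1, a sorting receptor, was higher at 10 months (1.19, SE 0.35). The protease gene Lgmn was higher at both ages, with medians of 8.88 CPM in xNMJ against 27.5 CPM in NMJ at 30 months (1.55, edgeR adjusted p = 0.00338) and with 1.08 (adjusted p = 0.04) at 10 months. Psap, the precursor of the saposins, was lower at 10 months, with medians of 340 CPM in xNMJ and 176 CPM in NMJ (-1.04, adjusted p = 0.00501), as was Laptm4a (-0.64, adjusted p = 0.0352). None of 17 genes of the V-ATPase, the pump that acidifies the lysosome, passed in any comparison in edgeR, with 1 at 10 months and 2 at 30 months below an unadjusted p of 0.05 between regions, against 22.8% and 20.7% of all tested genes. No gene of the 3 lists passed for age or for the interaction.

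Scaling changed which members passed. On unscaled log2(TPM + 1) with limma, 12 members were higher and 1 was lower in NMJ at 10 months, and 14 were higher and 0 lower at 30 months. That fit called 22.1% of all tested genes at 10 months and 27.0% at 30 months, and of all genes called 91.7% and 98.3% were higher, against 56.3% and 54.1% in the count test. Relative to the median of all genes, that of the members was then 0.04 at 10 months and 0.07 at 30 months. Wipi1 at both ages, Ctss and Bnip3 at 10 months and Hexa at 30 months passed there also. Ctsb and Atg7 at 10 months and Bnip3, Rb1cc1 and Ctsl at 30 months did not pass there. Their log2 fold changes shrank to -0.23 for Ctsb and -0.10 for Atg7 at 10 months, and to -0.17 for Bnip3, -0.10 for Rb1cc1 and -0.10 for Ctsl at 30 months. After TMM scaling of the TPM values, an alternative chosen after seeing the data, Ctsb passed again at 10 months, as did Bnip3 and Rb1cc1 at 30 months, and Atg7 and Ctsl did not.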

How the data were processed

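RNA-seq libraries of laser-captured regions were made by the authors with the SMART-Seq v4 kit. They trimmed single-end reads with Cutadapt 1.9.1 and assigned them with kallisto 0.43.1 to protein-coding transcripts of GRCm38, a read on several transcripts being divided equally among them. The counts deposited by the authors are whole numbers per gene and were not normalized, and the TPM values deposited by the authors account for transcript length and library size. Where coding exons of neighbouring genes overlap, as between Ctsb and Fdft1 or between Sqstm1 and Mrnip, assignment is uncertain.

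Groups were taken from the sample labels. Genes with at least 1 CPM in at least 8 libraries were kept (13990 genes, all 42 members included). Counts were scaled with TMM and fitted with edgeR 4.0.16 in R 4.3.3, with the quasi-likelihood test over the 4 groups together and two-sided p values adjusted by Benjamini-Hochberg over all genes, threshold 0.05. Fold changes are NMJ over xNMJ or 30 over 10 months. SE is the standard error of the log2 fold change. Alternatives were edgeR with the size factors of DESeq2, DESeq2 1.42.0 itself, no filter, only the compared groups, a replicate block, insert size as a covariate, limma 3.58.1 on log2(TPM + 1) and log2(TPM + 0.1), and leaving out each library. The members and lists were chosen with earlier results of these data known. By rule all members may be named, with values by group for those past the threshold in any comparison and for the 6 with the highest mean TPM, and in each further list up to 4 genes past it per comparison and direction. The log2 fold changes printed for other members were chosen after their values were seen. Gene positions came from GENCODE M21. On simulated data for the 10-month comparison, 102 of 200 genes changed 4-fold among 13679 were recovered, 75 of 85 at 10 CPM or more. Smaller changes, such as those of all called members but Ctss, were not simulated, so their recovery is not known. The number of counts sets a floor of 3 counts, and without molecular identifiers a read need not be a separate molecule. Intervals are 95%.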

Additional observations from a re-analysis of the deposited data

Results flagged for a closer look

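Samples far from the others of their group were looked for in 68 groups of 8 libraries, where chance flags about 1 in 20. Of the member genes, Atg7 was highest in 10m NMJ replicate 3 at 24.5 CPM, with the next library at 12.8 CPM. Ctss was highest in the same library at 35.5 CPM, with the next at 21.1 CPM. Hexa was highest in 10m NMJ replicate 2 at 89.0 CPM, with the next at 60.1 CPM. Map1lc3a stood out in 10m xNMJ replicate 7 at 208 CPM, with the next at 134 CPM, and in 30m xNMJ replicate 3 at 433 CPM, with the next at 213 CPM. Of the library measures, total counts were highest in 30m xNMJ replicate 5 at 13182475, with the next at 7490555, and in 30m NMJ replicate 5 at 16422527, with the next at 10918779. The average insert size given in the labels was lowest in 10m NMJ replicate 8 at 52 nucleotides, with the next at 109 nucleotides.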

How the results depend on the processing

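Wipi1 passed at both ages in every setting tried, with log2 fold changes of 0.99 to 1.53 at 10 months and 1.37 to 2.12 at 30 months. Bnip3 at 10 months (-1.15 to -0.62), Ctss at 10 months (2.45 to 3.76) and Hexa at 30 months (1.1 to 1.9) also passed in all of them. On unscaled TPM several calls were lost and the counts moved. At 10 months log2(TPM + 1), log2(TPM + 0.1) and log2(TPM + 1) without a filter called 2625, 2664 and 2184 genes higher and 237, 231 and 138 lower, with 12, 13 and 10 members higher and 1 lower in each. At 30 months they called 3435, 3512 and 2989 genes higher and 61, 57 and 44 lower, with 14, 14 and 12 members higher and 0 lower. Log2 fold changes changed sign in these 3 fits for Rb1cc1 at 10 months (0.093, 0.095 and 0.093), Ctsl at 10 months (0.53, 0.55 and 0.53), Atg7 at 30 months (0.16, 0.19 and 0.16) and Ctsb at 30 months (0.46, 0.47 and 0.46), none of which passed in the count test. Ctsl at 10 months also changed sign after TMM scaling of TPM (0.06) and without 10m xNMJ replicate 7, where leaving out 1 library gave -0.276 to 0.017. Insert size as a covariate gave 434 genes lower at 10 months, against 706 without it, for which the cause was not tested. Insert size itself differed between regions, with medians of 93.5 nucleotides in xNMJ and 117.5 in NMJ at 10 months. At 30 months they were 96 and 107 nucleotides. In 10m xNMJ it ranged from 79 to 108 nucleotides, and every 10m NMJ library except replicate 8 lay above this. Region and insert size can therefore hardly be told apart at 10 months.

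For age in NMJ, log2(TPM + 1) called 3 genes higher with the filter and 1 without it, TMM-scaled TPM 1 higher and DESeq2 1 lower. For age in xNMJ, DESeq2 called 51 genes higher and 33 lower, insert size as a covariate left 1 higher, and only the compared groups, the replicate block and the 4 TPM fits gave 0 higher and 0 lower. For age, the block joined libraries that share a number across ages, which come from different mice. Their deviations from the group mean correlated with a mean r of 0.0125 in NMJ and -0.0046 in xNMJ. For the interaction DESeq2 called 2 higher and 7 lower. No member was among the calls for age or interaction in any setting. The cause of these differences was not tested.

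Leaving out 1 library at a time gave 802 to 959 genes higher and 610 to 754 lower at 10 months, with 2 to 3 members higher and 2 to 4 lower. At 30 months it gave 598 to 836 genes higher and 497 to 640 lower, with 2 to 3 members higher and 2 to 4 lower. For age it gave 0 genes in NMJ, and 0 to 6 higher and 0 to 2 lower in xNMJ. For the interaction it gave 0 higher and 0 to 1 lower.

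The labels number the libraries 1 to 8 in every group. Deviations from the group mean correlated, for libraries that share a number in NMJ and xNMJ, with a mean r of 0.0893 at 10 months (-0.0016 to 0.187, across genes) and 0.0808 at 30 months (-0.0175 to 0.366), and 4 of 8 correlated best with their own number at each age. With the replicate block, 3 members were higher and 4 lower at 10 months, where 13.1% of all genes passed, and 3 higher and 3 lower at 30 months, where 10.9% did. Atg7 at 10 months was lost (-0.89, edgeR adjusted p = 0.074), while Atg13 (higher), Map1lc3a and Atg9a (lower) passed at 10 months and Ctss at 30 months (2.51, edgeR adjusted p = 0.00897). Depth limits the members of low level most, as a floor of 3 counts was up to 0.745 CPM before TMM scaling. The member levels are TMM-normalised, and on that scale 1 count of Ctss in 10m xNMJ replicate 1 was 0.311 CPM.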
